A study of Mus musculus with 6 samples.

Results

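Carbonic anhydrases are zinc enzymes that interconvert carbon dioxide and water with bicarbonate and protons. In the inner ear their activity is known from several cell types of the sensory and fluid-forming epithelia, and they work beside bicarbonate transporters, sodium-proton exchangers and proton pumps that set the pH of the endolymph and of the cells around it. The mouse family holds cytosolic enzymes, enzymes held at the outer face of the plasma membrane, and related proteins that keep the fold of the enzyme but not its activity. Expression of 10 members was followed here: the cytosolic Car2, Car3, Car7 and Car13, the membrane-bound Car4, Car9, Car12 and Car14, and the related proteins Car8 and Car11. They were taken by symbol, and all 10 were found among the 52636 genes of the deposited table and were above 0 in every library.

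The RNA came from vestibular sensory epithelium of male 129S1/SvImJ mice aged 2 to 4 months, with 2 utricles and 6 cristae of an animal pooled into 1 library. The 3 IDPN animals drank 30 mM 3,3'-iminodipropionitrile (IDPN), a nitrile toxic to the sensory hair cells (HCs), for 8 weeks, and the 3 Control animals drank plain water for the same time. No transgene or mutant allele is named for either group. All Control titles have a code stem in common that is missing from the IDPN titles, and the treatment and whatever this stem stands for cannot be told apart. Libraries held between 40474847 and 43566332 estimated counts. Markers of the labelled tissue were present: none of the 15 HC markers and none of the 11 supporting cell markers had a mean under 10 normalized counts, that is, estimated counts divided by a library's size factor. In whole tissue, fewer cells of a type and less RNA per cell cannot be told apart, and this holds for each result given here.

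The enzymatic site sets the members apart by sequence. In an active carbonic anhydrase, 3 histidines hold the zinc ion, and the coding sequence around them is shown for the most abundant member, for the members whose groups did not overlap and for the related protein Car11. Each stretch runs 5′ to 3′ along the coding strand, from 2 codons before the codon of the first ligand position to 2 codons after that of the third one, and the capitals mark the codons of the 3 ligand positions. Sequences are from GENCODE M21 transcripts on GRCm38, each crosses 1 exon junction, and the intron inside the given interval is left out.
Car3 (chr3:14866844-14868360, + strand, 90 bases): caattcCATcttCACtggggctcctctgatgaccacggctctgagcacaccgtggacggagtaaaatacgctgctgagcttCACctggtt
Car7 (chr8:104547728-104548197, + strand, 90 bases): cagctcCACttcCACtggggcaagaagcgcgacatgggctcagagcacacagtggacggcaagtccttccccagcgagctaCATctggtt
Car13 (chr3:14650700-14654895, + strand, 90 bases): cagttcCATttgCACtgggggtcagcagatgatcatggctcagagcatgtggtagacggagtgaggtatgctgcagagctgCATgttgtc
Car4 (chr11:84964161-84964359, + strand, 90 bases): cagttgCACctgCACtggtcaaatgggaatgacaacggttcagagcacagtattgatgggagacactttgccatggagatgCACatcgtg
Car12 (chr9:66747641-66750941, + strand, 93 bases): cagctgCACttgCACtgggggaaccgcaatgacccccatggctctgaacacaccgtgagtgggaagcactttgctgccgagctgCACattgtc
Car11 (chr7:45702542-45702844, + strand, 90 bases): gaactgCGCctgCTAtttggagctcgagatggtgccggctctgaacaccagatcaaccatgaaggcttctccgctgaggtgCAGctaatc

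All 4 cytosolic and all 4 membrane-bound members carried 3 histidine codons at these positions, which made 8 of the 10. Car11 carried arginine, leucine and glutamine codons there and no histidine. Translated and aligned with Car2, Car3 was identical at 56.9% of aligned residues, Car13 at 56.5% and Car7 at 55.0%, whereas the membrane-bound members lay between 33.3% and 38.4% and Car11 at 33.3%. At this distance the libraries could separate the members: of runs of 76 bases, the read length, none of Car2, Car3, Car4, Car7, Car8, Car11, Car12 or Car13 occurred in a transcript of another gene. The exceptions were Car14, with 14.65% of its runs inside Aph1a on the opposite strand, and Car9, with 3.42% inside Gm12454 on the opposite strand. The library kit did not mark strand, so for those parts the reads of the gene and its neighbour could not be told apart.

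The family was dominated by Car3, a cytosolic enzyme of low activity that is best known from skeletal muscle and fat. Its normalized counts were 169040, 132563 and 82325 in the Control libraries and 112118, 125820 and 132200 in the IDPN libraries. The widest spread was between the Control libraries themselves, which differed by up to 2.05-fold and enclosed all IDPN values. Car3 ranked 38th of 22027 protein-coding genes by level per kilobase of exon in Control. The fold change was -0.05 on the log2 scale (SE 0.22, 95% interval -0.49 to 0.39, DESeq2 Padj 0.95, n = 3 per group). Adipocyte markers were close to absent beside it: none of the 6 had a mean of 10 normalized counts, Lep and Cfd were at 0 in all libraries, and the summed level was 1.21 to 8.08 in Control and 0.933 to 2.48 in IDPN. Of the 8 skeletal muscle markers 5 had a mean under 10 normalized counts, and none of the 8 was at 0 throughout. Their summed level was 61.2 to 87.3 in Control and 48.0 to 62.5 in IDPN. Of the 4 that were tested 1, Tnnt3, was called lower by DESeq2 and 0 by edgeR.

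Counts grow with the length of a transcript, so levels of different members were set in order per kilobase of merged exon. On that scale Car3 held 76.6% ± 4.69 (SD, n = 3) of the family total in Control, followed by Car14 with 10.8% ± 2.79, Car2 with 5.52% ± 1.5, Car12 with 3.15% ± 0.903 and Car13 with 2.85% ± 1.01. The remaining members were Car7 with 0.613%, Car11 with 0.268%, Car4 with 0.143%, Car9 with 0.0441% and Car8 with 0.0258%. Neighbours in this order whose Control libraries overlapped were Car12 with Car13 and Car9 with Car8, and all other neighbours were separated in all 3 Control libraries. With the length of the longest transcript in place of the merged exons, the order was kept, but Car2 overlapped with Car12 and Car11 with Car4, Car12 and Car13 became separated, and the share of Car13 was 1.73%. Under IDPN the share of Car3 was 76.2% ± 2.62, that of Car12 was 2.14% ± 0.420 and that of Car4 was 0.381% ± 0.0787. All 10 members together took 0.308% to 0.447% of the estimated counts of a library.

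**Figure D1:**
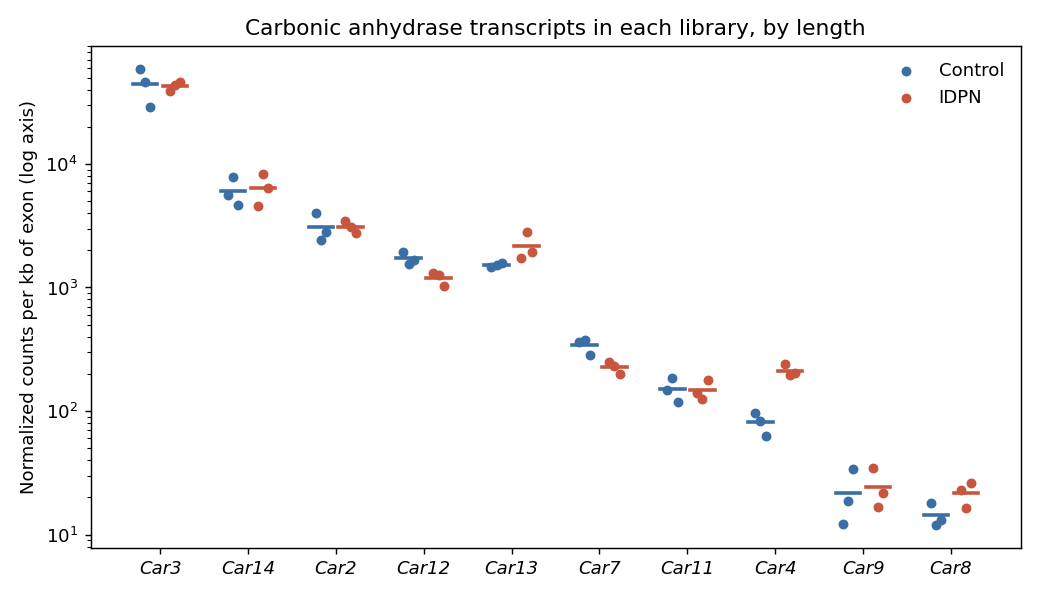
Normalized counts per kilobase of merged exon (log axis) for each of the 10 carbonic anhydrases, ordered by their Control mean. Points are the 3 Control and 3 IDPN libraries, in the order 1 to 3 from left to right, and bars are group means. Car3 lies 7.40-fold above Car14, the next member, and the groups are separated for Car4, Car7, Car12 and Car13.

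The comparison of IDPN with Control asked whether subchronic exposure changed the level of each member. A gene was called when its DESeq2 Padj, adjusted over all genes tested, was under 0.05 and its fold change exceeded 1.5. Of the 10 members, 1 was called higher (Car4) and 1 was called lower (Car7). Over the 17650 genes tested, 2.32% were called higher and 3.42% lower. Without the threshold on the fold change Car12 joined them, which made 3 of 10 members against 6.33% of all genes. Groups did not overlap for 2 members that were lower in IDPN (Car7 and Car12), against 11.4% of all genes, and for 2 that were higher (Car4 and Car13), against 11.1% of all genes. The edgeR quasi-likelihood test called only Car4 of the 10, against 3.21% of the genes it tested. The median log2 fold change of the members was 0.04 and that of all genes 0.02.

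**Figure D2:**
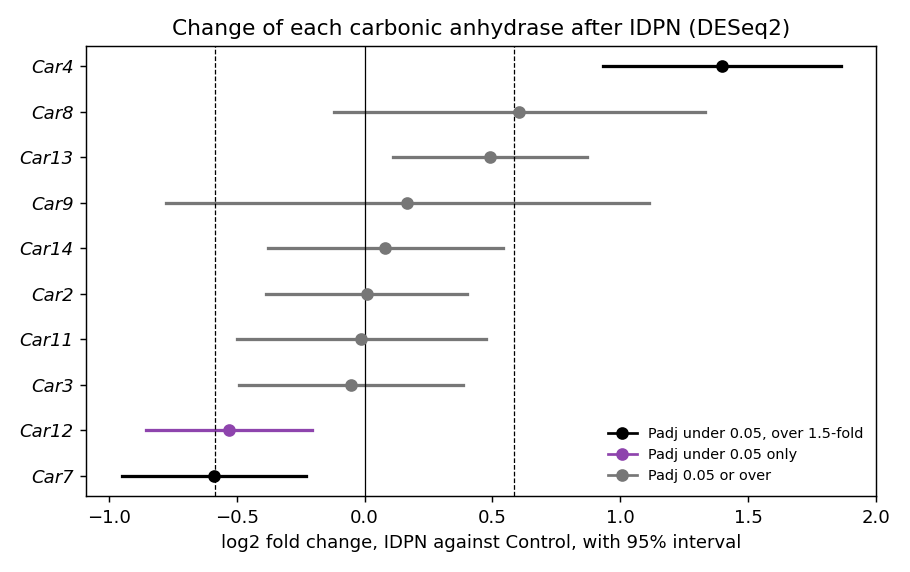
Log2 fold change of each carbonic anhydrase, IDPN against Control, from DESeq2 with its 95% interval over 3 libraries per group. Dashed lines mark a 1.5-fold change in either direction. Car4 is the only member whose whole interval lies beyond a dashed line, Car7 sits on the lower line, and the intervals of Car2, Car3, Car8, Car9, Car11 and Car14 include 0.

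Among the membrane-bound enzymes, Car4 rose and Car12 fell with a Padj under 0.05. Car4, which is tethered by a lipid anchor to the outer membrane of capillary endothelium and of several transporting epithelia, lies on chromosome 11 (84957786 to 84966044, + strand). Its normalized counts were 190, 163 and 125 in the Control libraries and 471, 384 and 399 in the IDPN libraries. All IDPN libraries were above all Control libraries. The fold change was 1.40 on the log2 scale (SE 0.24, 95% interval 0.93 to 1.86, Padj 4.5e-07, n = 3 per group), or 2.63-fold. Car4 was called under all 12 other settings, with a log2 fold change of 1.24 to 1.54 when 1 library was left out and an edgeR adjusted p of 0.0057. Despite the rise it stayed a minor member, since the Car4 level per kilobase under IDPN, 213 ± 23.7 (SD, n = 3), was below that of Car7, 227 ± 24.4, in the same libraries, where the ranges of both overlapped.

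Endothelial markers were read beside Car4. Of the 6 markers 5 were lower and 1 was higher in IDPN (1 lower and 5 higher with total-count scaling), Kdr was the 1 called and was lower, and none was at 0 in any library. Their summed level was 6160 to 10825 in Control and 5742 to 8742 in IDPN, and their median log2 fold change was -0.10, against 1.40 for Car4. Markers of blood were read as well. Of the 7 erythroid markers 4 were called higher by DESeq2 and 0 by edgeR. Slc4a1, the red cell anion exchanger, was at 0 in all Control libraries and at 0, 1.00 and 0.933 normalized counts in IDPN. Their summed level was 16166 to 36635 in Control and 34690 to 49092 in IDPN. Of the 5 that were tested, groups did not overlap for 1, Alas2. It gave 89.7, 140 and 147 normalized counts in Control and 322, 209 and 195 in IDPN. The part of blood cells in the Car4 level was not tested.

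Car12, a transmembrane enzyme with its active site outside the cell, lies on chromosome 9 (66713686 to 66766845, + strand). Its normalized counts were 14811, 11799 and 12739 in the Control libraries and 9936, 9560 and 7748 in the IDPN libraries. All IDPN libraries were below all Control libraries. The log2 fold change was -0.53 (SE 0.17, 95% interval -0.86 to -0.21, Padj 0.027, n = 3 per group), which is 1.44-fold lower and short of the 1.5-fold threshold. It was called when Control 2 (-0.61, Padj 0.042) or IDPN 1 (-0.59, Padj 0.040) was left out, and its edgeR adjusted p was 0.15. The study lists Car12 among the genes lowered in all its comparisons, these libraries among them, with the same stated thresholds. Here it was not called, and its direction is not independent evidence.

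HC markers were lower in the same libraries. Of the 15 HC markers 14 were lower (12 with total-count scaling) and 7 were called lower by DESeq2 and 6 by edgeR, with a summed level of 47571 to 51382 in Control and 32276 to 33893 in IDPN. The median log2 fold change of the HC markers was -0.68. Of the 11 supporting cell markers 8 were lower (7 with total-count scaling) and 1 was called lower by DESeq2 and 0 by edgeR, with a summed level of 324853 to 462614 in Control and 234419 to 274695 in IDPN. No HC or supporting cell marker was at 0 in any library. In other mice given this exposure, the study counted hair bundles of the central utricle. It reported no change at the end of exposure, and a lower number some weeks after it. The part of HCs and supporting cells in the Car12 level was not tested.

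The other membrane-bound enzymes did not pass the test. Car14, a transmembrane enzyme known from brain and pigment epithelium and the second most abundant member, gave 14172, 19981 and 11900 normalized counts in Control and 11560, 21018 and 16148 in IDPN. The groups covered nearly the same range, with a log2 fold change of 0.08 (SE 0.23, 95% interval -0.38 to 0.54, Padj 0.92). Car9, the tumour-associated enzyme that is induced by low oxygen, gave 27.9, 42.7 and 78.3 normalized counts in Control and 79.4, 38.2 and 50.4 in IDPN. The log2 fold change of Car9 was 0.17 with a 95% interval of -0.78 to 1.11 (Padj 0.92), an interval that includes a 1.5-fold change in either direction. In a list of 10 other genes known to respond to low oxygen, 7 were lower and 3 higher in IDPN (5 and 5 with total-count scaling), and 1 was called, Adm, which was higher.

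Because the groups of Car4 and Car12 moved apart, their ratio within a library was examined; it does not depend on the scaling between libraries, and the pair was picked with its values known. The log2 ratio of Car4 to Car12 normalized counts was -6.28, -6.18 and -6.68 in the Control libraries and -4.40, -4.64 and -4.28 in the IDPN libraries. The groups did not overlap, which was fixed in advance because all IDPN libraries were higher for Car4 and lower for Car12. The mean ratio was 1.94 higher in IDPN on the log2 scale (-6.38 ± 0.26 in Control and -4.44 ± 0.18 in IDPN, SD, n = 3). The ratio of Car12 to Car14 overlapped between the groups.

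Among the cytosolic enzymes, Car7 was lower and Car13 lay higher in IDPN, whereas Car2 and Car3 overlapped. Car7, an enzyme known chiefly from neurons, lies on chromosome 8 (104534689 to 104550343, + strand). Its normalized counts were 1324, 1360 and 1043 in the Control libraries and 901, 847 and 728 in the IDPN libraries. No IDPN library reached the lowest Control library, Control 3, and the log2 fold change was -0.59 (SE 0.18, 95% interval -0.95 to -0.23, Padj 0.026, n = 3 per group). The value of 1.504-fold lower was barely past the threshold of 1.5, and the call depended on the processing. It was lost with edgeR (adjusted p 0.067), with TMM scaling (log2 fold change -0.58, Padj 0.024), and without Control 1, Control 2, IDPN 2 or IDPN 3, where the Padj ranged from 0.064 to 0.19.

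Neuronal markers were lower beside Car7. All 6 of the 7 neuronal markers that were tested were lower (5 with total-count scaling) and 4 were called lower by DESeq2 and 2 by edgeR, with a summed level of 5424 to 5641 in Control and 3435 to 3647 in IDPN, and Nefh was at 0 in Control 2. The median log2 fold change of these markers was -0.64, against -0.59 for Car7. The part of neurons, or of the HC markers given above, in the Car7 level was not tested.

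Car13, a cytosolic enzyme, gave 3390, 3505 and 3663 normalized counts in the Control libraries and 3979, 6416 and 4432 in the IDPN libraries. The Control libraries lay within 1.08-fold of each other, and all IDPN libraries were above them, IDPN 2 by the most. The log2 fold change was 0.49 (SE 0.19, 95% interval 0.11 to 0.87), but the Padj of 0.12 did not pass. It was called without IDPN 1 (0.63, Padj 0.046), and without IDPN 2 the log2 fold change was 0.26 with a Padj of 0.49.

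Car2, the cytosolic enzyme of high activity that is found in most transporting epithelia, gave 9733, 5865 and 6790 normalized counts in Control and 8396, 7424 and 6692 in IDPN. The highest and the lowest value were both Control libraries, and the log2 fold change was 0.01 (SE 0.20, 95% interval -0.39 to 0.40, Padj 0.99). Control 1, which had the highest Car2 and Car3 counts, also had the highest summed level of the 7 Schwann cell markers, 222592 against 102936 to 120226 in the other Control libraries and 89996 to 107340 in IDPN. Control 1 was also highest for the supporting cell markers, at 462614 against 371634 and 324853 in Control 2 and Control 3. The same held for the sum over all genes, at 51279200 against 48942800 and 38579200. Sox10, a Schwann cell marker of the same list, had its lowest count, 1938, in Control 1. The part of myelinating cells in the Car2 and Car3 counts was not tested. Without Control 1 the log2 fold change was 0.24 for Car2 and 0.20 for Car3, and neither passed.

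Car13, Car3 and Car2 lie close together on the + strand of chromosome 3, at 14641727 to 14663002, 14863512 to 14872523 and 14886273 to 14900770. The level per kilobase in Control was 1531 ± 59.6 for Car13, 44669 ± 15197 for Car3 and 3081 ± 834 for Car2 (SD, n = 3). Among these neighbours only Car13 had groups that did not overlap. The log2 ratio of Car13 to Car2 nevertheless overlapped between the groups, at -1.05 ± 0.41 in Control and -0.63 ± 0.43 in IDPN. The log2 ratio of Car13 to Car7, a pair picked with its values known, was 1.36, 1.37 and 1.81 in the Control libraries and 2.14, 2.92 and 2.61 in the IDPN libraries. The lack of overlap was fixed in advance, because all IDPN libraries were higher for Car13 and lower for Car7.

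The related proteins were expressed at a low level and did not pass the test. Car8, which binds an inositol trisphosphate receptor and is best known from cerebellar Purkinje cells, gave 69.1, 46.2 and 50.7 normalized counts in Control and 87.7, 63.3 and 101 in IDPN. Only IDPN 2 lay inside the Control range, and the log2 fold change of 0.61 had a wide interval, -0.12 to 1.33 (SE 0.37, Padj 0.43). Car11, a related protein of brain, gave 283, 356 and 229 normalized counts in Control and 271, 241 and 346 in IDPN. Its groups overlapped fully, with a log2 fold change of -0.01 (SE 0.25, 95% interval -0.50 to 0.47, Padj 0.99).

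**Figure D3:**
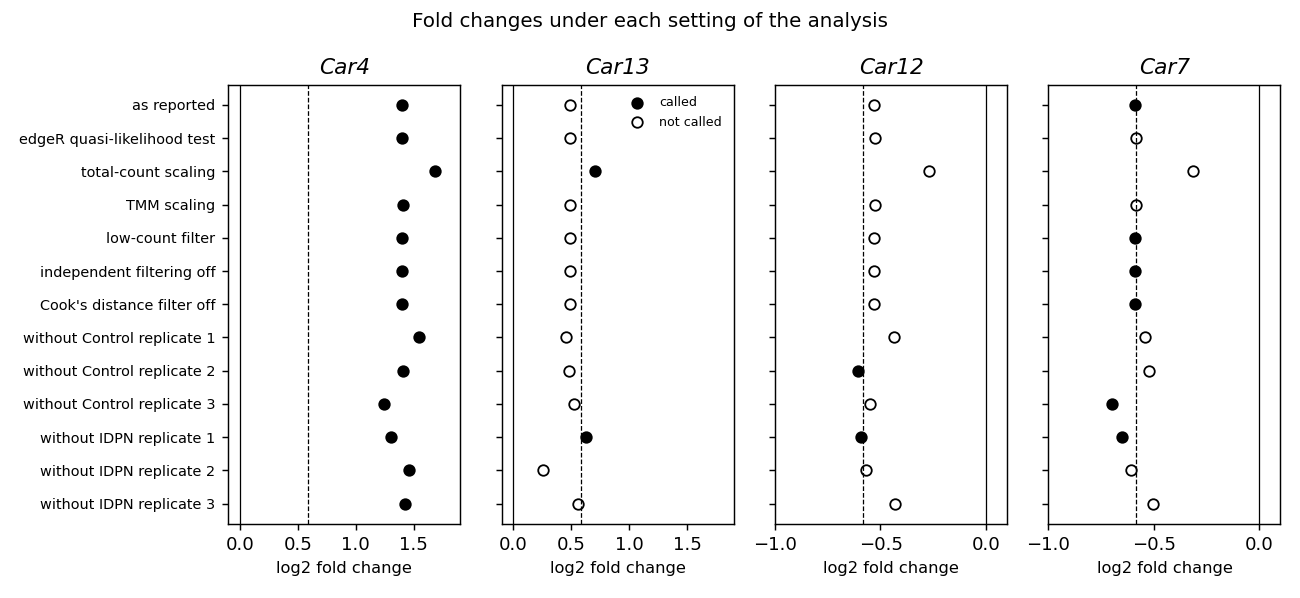
Log2 fold change (IDPN against Control) of Car4, Car13, Car12 and Car7 as reported and under 12 other settings, 6 of which leave out 1 library. Filled points passed both thresholds, open points did not, and the dashed line is a 1.5-fold change. Car4 is filled in every row, and Car7 crosses the line in both directions.

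The scaling between libraries mattered for the smaller differences. With size factors proportional to total counts, the median log2 fold change of all genes moved up by 0.25, to 0.27. Under that scaling the log2 fold change was 1.69 for Car4, 0.71 for Car13 (Padj 0.033, called), -0.31 for Car7 (Padj 0.44) and -0.27 for Car12 (Padj 0.51). Car7 and Car12 stayed lower in IDPN but passed no threshold, and Car3 and Car11 turned from slightly lower to slightly higher.

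Of the 8 further family genes, which include the receptor phosphatases Ptprz1 and Ptprg with their carbonic anhydrase-like outer domain, none was called by DESeq2 or edgeR among the 6 with a Padj, and 1 had an unadjusted p under 0.05, Ptprz1. Ptprz1 gave 1711, 1671 and 2117 normalized counts in Control and 1442, 1233 and 1218 in IDPN. Its groups did not overlap, with a log2 fold change of -0.50 and a Padj of 0.057. Ptprg lay at -0.21 (Padj 0.72). The mitochondrial Car5b (mean 34.5 normalized counts) and the membrane-anchored Car15 (mean 21.8) gave 0.58 and 0.69 with a Padj of 0.70 and 0.62. The others, Car1, Car5a, Car6 and Car10, had a mean under 10 normalized counts.

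The proteins that carry bicarbonate and protons in and out of cells were followed in 4 lists of 62 genes, of which 50 had a Padj. Of these 3 were called lower and 0 higher by DESeq2, against 3.42% and 2.32% of all genes, and 26 were lower and 24 higher with a median log2 fold change of -0.04, against 0.02 for all genes and 0.04 for the 10 carbonic anhydrases. With total-count scaling 15 were lower and 35 higher, with a median of 0.22 against 0.27 for all genes. Emb, an ancillary subunit of lactate transporters singled out after its value was seen, had a log2 fold change of 0.48 with a Padj of 0.040. An unadjusted p under 0.05 was found for 9 genes on the lower side and 4 on the higher side, and edgeR called 1 lower and 0 higher.

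**Figure D4:**
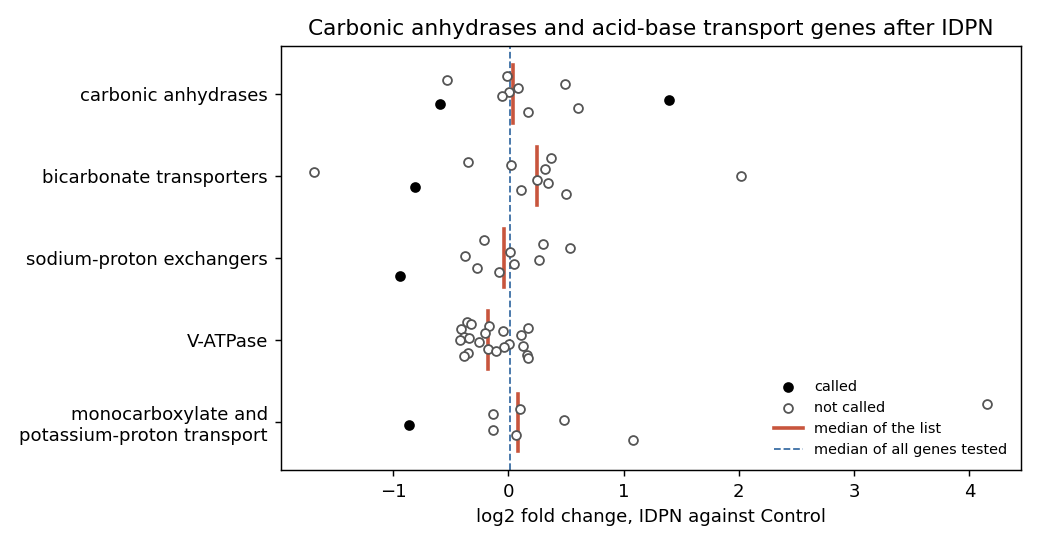
Log2 fold change (IDPN against Control) of the 10 carbonic anhydrases and of the tested genes of 4 acid-base transport lists. Each point is a gene, filled points were called by DESeq2, the red bar is the median of the list and the dashed line the median of all genes tested, 0.02. The called genes are Car4 on the higher side and Car7, Slc4a4, Slc9a9 and Slc16a1 on the lower side.

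Among bicarbonate transporters, Slc4a4, the electrogenic sodium-bicarbonate cotransporter, gave 302, 272 and 439 normalized counts in Control and 233, 153 and 193 in IDPN. All IDPN libraries were lower, with a log2 fold change of -0.81 (Padj 0.039) that edgeR did not call (adjusted p 0.12) and that was lost without Control 1, Control 3, IDPN 2 or IDPN 3 (Padj 0.085 to 0.20). Slc26a4, the anion exchanger pendrin and the most abundant gene of this list, had a log2 fold change of -0.35 (Padj 0.33). In this list 3 of the 11 genes tested were lower and 8 higher.

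Among sodium-proton exchangers, Slc9a9, an exchanger of endosomes, gave 895, 940 and 1167 normalized counts in Control and 708, 448 and 413 in IDPN. The groups did not overlap, and the log2 fold change of -0.93 (Padj 0.0021) was called by both DESeq2 and edgeR (adjusted p 0.049). The call was lost with total-count scaling (-0.68, Padj 0.20) and was near the threshold without IDPN 3 (Padj 0.049). The scaffold Slc9a3r2, the most abundant gene of the list, had a log2 fold change of -0.38 (Padj 0.17). Of the 10 genes tested 5 were lower and 5 higher, or 3 and 7 with total-count scaling.

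For the V-ATPase, the pump that moves protons at the cost of ATP, 15 of the 21 subunits tested were lower and 6 higher with a median of -0.18 and 0 called by DESeq2 or edgeR (5 lower with an unadjusted p under 0.05), but with total-count scaling 8 were lower and 13 higher with a median of 0.08. The subunit with the lowest p was Atp6v1a at -0.42 (Padj 0.092), and the most abundant one, Atp6ap1, lay at -0.35 (Padj 0.21). Among the 8 genes tested for monocarboxylate and potassium-proton transport, the lactate and proton cotransporter Slc16a1 was called lower, with 5917, 3014 and 3942 normalized counts in Control and 2809, 2634 and 1670 in IDPN. This gave a log2 fold change of -0.86 (Padj 0.016), lost with edgeR (adjusted p 0.12) and without Control 1 (Padj 0.27) or IDPN 3 (Padj 0.19). The most abundant gene, the ancillary protein Bsg, lay at -0.13 (Padj 0.82).

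The genes most like each member over the 6 libraries were ranked by Pearson's r of log2 normalized counts among 11762 genes with a mean of at least 100. The 3 most like Car4 were Herc1 (r = 0.995), the unnamed gene 6030407O03Rik (0.992) and Cyp46a1 (0.992), and 57 genes exceeded 0.95. The 3 most like Car7 were 2810468N07Rik (0.999), Dtymk (0.990) and Tufm (0.989), with 96 genes over 0.95. The nearest to Car12 were Scrn1 (0.996), Enkur (0.996) and Ggta1 (0.994), with 78 over 0.95, and the nearest to Car3 were Fech (0.991), Fh1 (0.990) and Paqr6 (0.986), with 29. With 6 libraries these values describe which genes ranked together, and all libraries share their depth and their group between genes.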

How the data were processed

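Bulk RNA-seq of 3 Control and 3 IDPN vestibular epithelium samples was used, 1 animal per library. Starting from 6 to 11 ng of RNA, cDNA was amplified for 8 cycles and libraries for 12, without molecular identifiers. Per the labels and the study's methods, the authors aligned 76 bp reads with STAR (2.5.3a) to GRCm38 and deposited estimated counts (expected counts) per gene from RSEM (listed as 2.3.0), given as whole numbers and not normalized. RSEM splits reads shared by similar genes between them.

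Groups came from the treatment label. Replicates were numbered in accession order. Counts were tested with DESeq2 1.42.0 (R 4.3.3; Wald test, median-of-ratios size factors of 0.8245 to 1.208, no covariate). A gene was called at Padj under 0.05 and over 1.5-fold. The first alternative was edgeR 4.0.16. Others were total-count and TMM scaling, a filter of 10 counts in 3 libraries, both DESeq2 filters off, and each library left out. Normalized counts were divided by exon length from GENCODE M21, a later release on the authors' build. Likeness used log2 of the normalized count plus 1.

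On simulated counts for 25689 genes with 200 changed 4-fold between IDPN and Control, DESeq2 recovered 98.0% of these with 12.1% of 223 calls false, and edgeR 94.5% with 9.13% of 208.

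Members and lists were chosen with earlier results of these data known. The text names all members, other family genes with a mean of 10 or more, each transport list's called genes (else its lowest p) and its most abundant gene, and the 3 genes most like Car3, Car12 and each called member. Some items are not reported here.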

Additional observations from a re-analysis of the deposited data

How the results depend on the processing

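As reported, 1 member was called lower and 1 higher, and 3 acid-base genes were called lower and 0 higher. The members called lower were 0 with edgeR, with total-count scaling and with TMM scaling, and 2 without the fold threshold (Car7 and Car12). The members called higher were 2 with total-count scaling (Car4 and Car13). The acid-base genes called lower were 1 with edgeR (Slc9a9) and 0 with total-count scaling, and those called higher were 1 with total-count scaling and 1 without the fold threshold, Emb both times.

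Leaving out 1 library at a time gave 0 to 2 members called lower (0 without Control 1, IDPN 2 or IDPN 3, 2 without IDPN 1) and 1 to 2 called higher (2 without IDPN 1). It gave 1 to 3 acid-base genes called lower (1 without Control 1 or IDPN 3) and 0 to 2 called higher (Slc4a11 and Slc9a3 without Control 3, and Slc4a11 without IDPN 3). The log2 fold changes of members near 0 changed sign over these fits: Car2 ranged from -0.14 to 0.24, Car3 from -0.29 to 0.20, Car9 from -0.17 to 0.67, Car11 from -0.17 to 0.16 and Car14 from -0.15 to 0.31. Total-count scaling turned Car3 to 0.24, Car11 to 0.27, Ptprg to 0.029 and Bsg to 0.14.

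The causes were not tested. Car4 kept its direction and its call in all 12 other settings, and Car7 and Car12 kept their direction in all 12. Car7 lost its call in 7 of them, and Car12, not called as reported, gained one in 2. No paired analysis was possible because each library came from a different animal and the labels pair none of them. Car8 and Car9 had the lowest counts, with means of 69.6 and 52.8 normalized counts, and the Control libraries of Car9 differed by 2.81-fold.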

Other observations

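A few acid-base genes that no rule named were singled out after their values were seen. Slc4a11, a transporter of the bicarbonate family that carries protons and ammonia, gave 136, 84.3 and 263 normalized counts in Control and 1174, 550 and 234 in IDPN, a log2 fold change of 2.02 with a DESeq2 Padj of 0.10. IDPN 3 lay inside the Control range, and IDPN 1 was the highest. Slc26a7, an anion exchanger, was close to absent in Control 1, with 2.43 normalized counts, against 200 and 288 in the other Control libraries and 134, 97.4 and 382 in IDPN.

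The remaining marker lists gave these values. Of the 9 markers of dark and transitional cells, which border the sensory patches and handle endolymph ions, 8 were tested, 6 of them lower and 2 higher (5 and 3 with total-count scaling), with 0 called by DESeq2 or edgeR and 3 with an unadjusted p under 0.05. Their summed level was 52012 to 86978 in Control and 52148 to 61561 in IDPN. All 8 type I HC markers were lower (8 with total-count scaling), and 7 were called lower by DESeq2 and 7 by edgeR, with a median log2 fold change of -1.49. Most of them are genes that the study lists as lowered in all its comparisons, these libraries among them, so their direction is not independent evidence. The study marks Kcna10, Xirp2 and Lrtm2 as selective for HCs over supporting cells. It does not name them among its genes selective for type I over type II HCs, so this list does not separate the HC types. All 4 type II HC markers were lower (2 lower and 2 higher with total-count scaling), with Calb2 called. All 6 melanocyte markers were higher and 0 were called by DESeq2 or edgeR, with 3 at an unadjusted p under 0.05 and a summed level of 6366 to 14355 in Control, lowest in Control 3, and 14606 to 22129 in IDPN. Of the 8 macrophage markers 2 were lower and 6 higher (all 8 higher with total-count scaling), 0 were called by DESeq2 or edgeR, and 3 had an unadjusted p under 0.05. Of the 8 osteoclast and bone markers 4 were tested, 2 lower and 2 higher (1 and 3 with total-count scaling), and Calcr and Ocstamp were at 0 in all libraries.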
